A study of Mus musculus with 24 samples.

Results

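Polycomb group proteins keep developmental genes silent. The transcripts of 9 of their genes, *Ezh1*, *Ezh2*, *Eed*, *Suz12*, *Rnf2*, *Bmi1*, *Cbx2*, *Cbx7* and *Cbx8*, were examined by symbol among the 26411 genes of each count table, and all 9 were found and passed the filter on low counts. The cells were neural stem and progenitor cells (NSPCs), taken from the dorsal telencephalon, the precursor of the cortex, of individual mouse E12.5 embryos on a C57BL/6 background. Messenger RNA was counted in 24 libraries, 4 for each of 3 *Kat6a* genotypes in each of 2 conditions. *Kat6a* encodes a histone acetyltransferase, and its null allele carries a deletion of exons that leads to a premature stop within the catalytic domain. *Kat6a*+/+ cells had both alleles intact, *Kat6a*+/- cells had 1 null allele and *Kat6a*-/- cells had 2. The counts are per whole gene, so they do not check the deletion. Cells of all genotypes were passaged in neurosphere culture, but the study describes mutant colonies as prone to attach to the dish, most of all those of *Kat6a*-/- cells, so growth form and genotype cannot be told apart here. Proliferating NSPCs were then kept for 3 days in medium with FGF2, EGF and heparin. Differentiating NSPCs were kept for 3 days on poly-L-ornithine and laminin with 1% fetal bovine serum and without these growth factors.

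Polycomb repressive complex 2 (PRC2) places the repressive mark H3K27me3 on histone H3. Its catalytic subunit is either EZH2, which is typical of dividing cells, or EZH1, which is typical of non-dividing cells, and it works only together with EED and SUZ12. Polycomb repressive complex 1 (PRC1) ubiquitinates histone H2A through RNF2 (RING1B) paired with a PCGF protein such as BMI1 (PCGF4), and a CBX protein such as CBX2, CBX7 or CBX8 docks it on H3K27me3. In the developing cortex these complexes are known for holding the *Cdkn2a* locus and the HOX genes silent and for timing the switch from neurons to glia.

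Library totals ranged from 7826660 to 40838203 counts, and members received between 38 counts (*Cbx7*) and 8555 counts (*Ezh2*) in a library. Levels are given as CPM, counts scaled to the library total with TMM factors, and comparisons between genes as CPM per kb of gene length. A gene was called when its false discovery rate (FDR, Benjamini-Hochberg over all tested genes, limma) was under 0.05, and fold changes are fitted log2 values with their standard error (SE). Libraries were separate embryos within a group, but not always separate litters. By their labels the 12 proliferating libraries came from 5 litters and the 12 differentiating ones from 7. Replicates 1 and 2 of the *Kat6a*-/- group were littermates in either condition, as were replicates 2 and 3 of proliferating *Kat6a*+/- cells. The fit of the differentiating libraries held no litter term. Of the 4 libraries per group, 3 *Kat6a*+/+, 1 *Kat6a*+/- and 1 *Kat6a*-/- had reads of Y-linked genes, whichever the condition, and 1 embryo label carried by a proliferating and a differentiating *Kat6a*+/+ library (replicate 1 of each) had Y-linked reads only in the latter. RNA was extracted with another kit in each condition, so kit and condition cannot be told apart. In the differentiating *Kat6a*-/- group, the quality weights gave replicate 3 a share of 68.9% and replicate 2 a share of 4.22%, which bears on every fitted value of that group. Replicate 1 held the largest share in the differentiating *Kat6a*+/- (50.2%) and *Kat6a*+/+ (42.0%) groups. In bulk RNA, fewer cells of a type and less RNA per cell cannot be told apart. The libraries were made with a stranded kit, but the strand setting of the counting is not given in the sources used here. Without strand, reads of *Suz12* and *Ezh2* could not be told apart from those of *Crlf3* (26752 bases of shared span) and *Cul1* (3248 bases), which lie on the opposite strand.

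**Figure D1:**
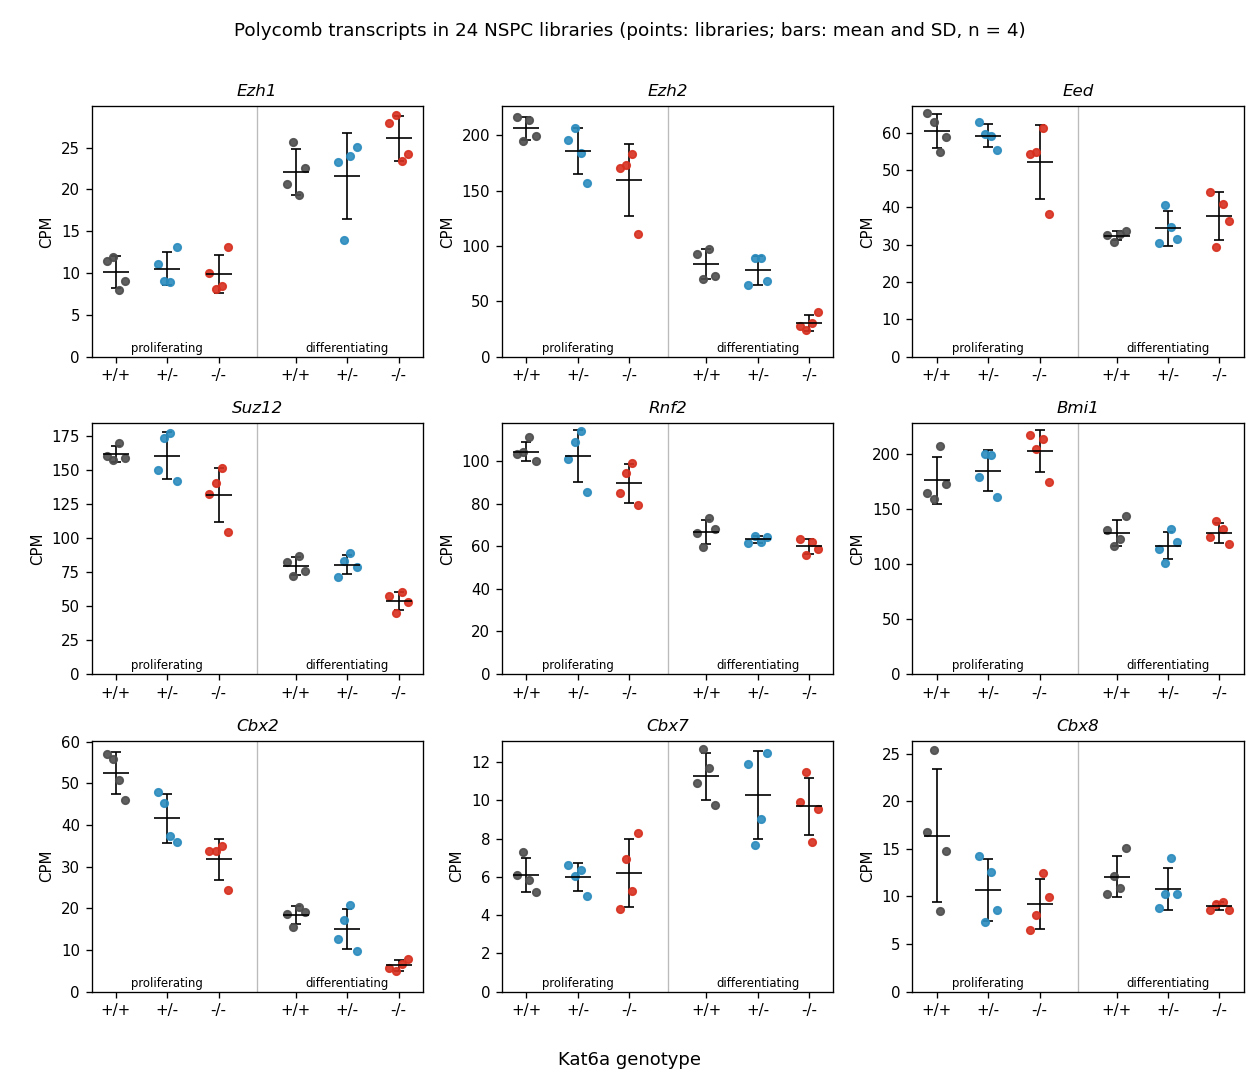
CPM (y axis, from 0) of the 9 Polycomb transcripts in each library (points), by *Kat6a* genotype and condition (x axis), with the mean and SD of 4 libraries. *Ezh2*, *Suz12* and *Cbx2* of the *Kat6a*-/- libraries lay below all *Kat6a*+/+ libraries in both conditions, and *Ezh1* and *Cbx7* were the members with higher levels in differentiating than in proliferating *Kat6a*+/+ cells.

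The first comparison set differentiating against proliferating *Kat6a*+/+ NSPCs and gives the scale for the genotype effects. Replicates 1 and 3 carried the same embryo label in both conditions, and the fit did not pair them. Of the 9 members, 8 were called, 6 lower and 2 higher in differentiating cells, against 73.0% of all genes (36.3% lower and 36.7% higher), so being called is by itself common in this comparison. The catalytic subunits of PRC2 went opposite ways, *Ezh2* down and *Ezh1* up, and so did the chromodomain genes *Cbx2* and *Cbx7*. *Cbx8* was not called (−0.45, SE 0.22, FDR 0.0713).

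*Ezh2* (mm39 chromosome 6, 47507073 to 47572331, minus strand) stood at 216, 195, 214 and 199 CPM in the 4 proliferating *Kat6a*+/+ libraries and at 93.1, 70.4, 97.1 and 73.2 CPM in the differentiating ones. The groups did not overlap, and the log2 change was −1.32 (SE 0.16, FDR 1.91e-07). *Ezh1* (chromosome 11, 101081934 to 101117315, minus strand) stood at 11.5, 11.9, 7.95 and 9.01 CPM in proliferating and at 20.7, 25.7, 19.3 and 22.6 CPM in differentiating *Kat6a*+/+ libraries. Every differentiating library was above every proliferating one, with a log2 change of 1.04 (SE 0.18, FDR 1.98e-05). The shared core subunits fell as well, *Suz12* by 1.03 (SE 0.11, FDR 2.63e-08) and *Eed* by 0.91 on the log2 scale (SE 0.12, FDR 1.08e-06).

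Among PRC1 genes the largest fall was that of *Cbx2* (chromosome 11, 118913788 to 118922100, plus strand). It stood at 57.1, 55.9, 50.8 and 45.9 CPM in proliferating and at 18.5, 15.5, 20.3 and 19.2 CPM in differentiating *Kat6a*+/+ libraries, a log2 change of −1.53 (SE 0.15, FDR 1.16e-08). *Rnf2*, the ubiquitin ligase, fell by 0.65 (SE 0.08, FDR 6.04e-07) and its partner *Bmi1* by 0.46 on the log2 scale (SE 0.10, FDR 3.86e-04). *Cbx7* (chromosome 15, 79800001 to 79855320, minus strand) rose from 6.10 ± 0.868 to 11.3 ± 1.23 CPM (mean ± SD, n = 4), a log2 change of 0.84 (SE 0.17, FDR 1.11e-04). For these 8 genes the proliferating and differentiating *Kat6a*+/+ libraries did not overlap, which held for 71.9% of all tested genes. All 8 stayed called in each of the 35 alternative settings.

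*Ezh2* and *Suz12*, which both fell here and were both lower in *Kat6a*-/- cells of either condition, are shown with the sequence before their start, since E2F factors and CCAAT-binding NF-Y are known regulators of genes of dividing cells. The RefSeq promoter windows (GRCm38.p6, from 250 bases before to 50 after the start) held 8 of the 9 members, and *Cbx2* was not among them. Both strands were searched for the E2F-type letters TTTGGCGC, TTTCCCGC, TTTCGCGC and TTTGCCGC and for CCAAT, and the matches in the stretches shown do not overlap. The E2F letters occurred in 2 of 8 members, *Ezh2* and *Suz12*, and in 2.26% of all 32851 windows. CCAAT occurred in 5 of 8 members and in 37.4% of all windows. These 5 were *Ezh2*, *Suz12*, *Eed*, *Cbx7*, which rose here, and *Cbx8*, which was not called. Base composition was not matched. The bases G and C made up 73.6% of the *Suz12* stretch, beside a median of 52.4% for the 250 upstream bases of all windows. They made up 62.2% of the *Ezh2* stretch, which is shorter and crosses the start, so that median is not a like measure for it. In the *Ezh2* stretch (chr6:47595020-47595130, minus strand, 100 bases before the start and the first 11 from it) capitals mark 3 CCAAT matches, on either strand, and TTTGGCGC, which begins at base 4 of the transcript. In the *Suz12* stretch (chr11:79992856-79993105, plus strand, the 250 bases before the start) capitals mark TTTCCCGC, which begins 219 bases before the start, and CCAAT, which begins 61 bases before it. A match of letters is no measure of binding, which these data did not cover.
Ezh2: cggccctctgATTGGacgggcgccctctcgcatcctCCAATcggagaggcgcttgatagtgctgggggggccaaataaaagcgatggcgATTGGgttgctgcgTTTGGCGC
Suz12: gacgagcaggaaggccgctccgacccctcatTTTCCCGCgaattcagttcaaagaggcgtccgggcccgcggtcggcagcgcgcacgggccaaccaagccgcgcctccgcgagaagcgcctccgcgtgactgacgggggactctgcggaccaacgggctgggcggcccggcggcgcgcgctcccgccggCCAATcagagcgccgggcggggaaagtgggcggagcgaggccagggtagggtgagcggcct

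Per kb of length, the order of the members differed between the conditions. In proliferating *Kat6a*+/+ NSPCs *Ezh2* stood highest at 60.7 ± 3.10 CPM per kb, above *Bmi1* at 43.8 ± 5.36 and *Suz12* at 36.9 ± 1.36, with no overlap of their libraries. *Eed* (29.3 ± 2.23) and *Rnf2* (26.4 ± 1.14) overlapped, as did *Cbx2* (14.0 ± 1.36) and *Cbx8* (11.8 ± 5.01), and *Cbx7* (2.11 ± 0.300) and *Ezh1* (1.62 ± 0.307) stood lowest and overlapped each other. In differentiating *Kat6a*+/+ NSPCs *Bmi1* stood highest at 31.9 ± 3.00 CPM per kb, above *Ezh2* at 24.6 ± 4.02. *Suz12* (18.2 ± 1.50), *Rnf2* (16.9 ± 1.45) and *Eed* (15.7 ± 0.626) followed, each overlapping the next, then *Cbx8* (8.67 ± 1.56). *Cbx2* (4.89 ± 0.553), *Cbx7* (3.89 ± 0.425) and *Ezh1* (3.55 ± 0.443) came last, each overlapping the next.

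**Figure D2:**
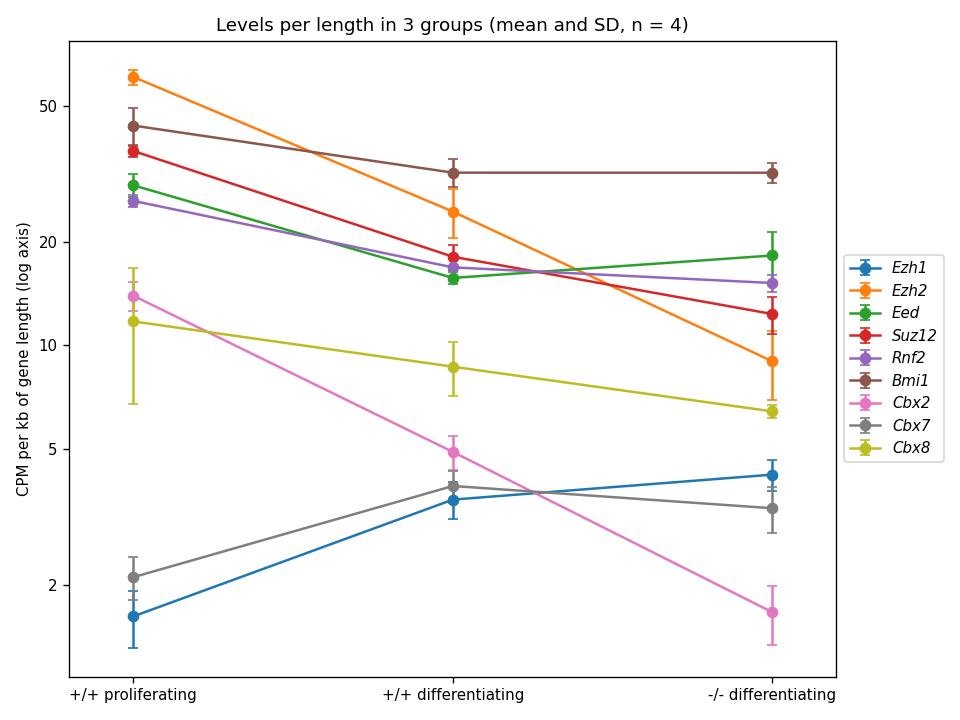
Level per length of each member (y axis, CPM per kb of gene length, log axis) in proliferating *Kat6a*+/+, differentiating *Kat6a*+/+ and differentiating *Kat6a*-/- NSPCs (mean and SD, n = 4). *Ezh2* went from the highest level in proliferating *Kat6a*+/+ cells (60.7) to a level of 8.99 in differentiating *Kat6a*-/- cells, and *Bmi1* stood at 31.9 in both differentiating groups.

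The next comparison asked which Polycomb transcripts changed without KAT6A in proliferating NSPCs. *Cbx2*, *Ezh2* and *Suz12* were lower in *Kat6a*-/- than in *Kat6a*+/+ cells, and no member was called higher. That is 3 of 9 members or 33.3%, against 30.0% of all tested genes called, so the members were called about as often as other genes. In the lower direction alone 13.8% of all genes were called. The median log2 change of the members was −0.19, beside −0.0045 over all genes.

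*Cbx2* had the largest of these changes. Its levels were 33.7, 33.8, 34.9 and 24.4 CPM in the *Kat6a*-/- libraries against 57.1, 55.9, 50.8 and 45.9 CPM in *Kat6a*+/+, with every *Kat6a*-/- library below every *Kat6a*+/+ one. The log2 change was −0.66 (SE 0.11, FDR 0.00115), and it was called in each of the 23 alternative settings, where it ranged from −0.73 to −0.53.

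*Ezh2* stood at 170, 173, 183 and 111 CPM in the *Kat6a*-/- libraries, all below the *Kat6a*+/+ range, with replicate 4 far below the other replicates. The log2 change was −0.34 (SE 0.11, FDR 0.0333). *Suz12* (chromosome 11, 79883891 to 79925421, plus strand) stood at 132, 140, 151 and 104 CPM, again all below the 160, 157, 170 and 159 CPM of the *Kat6a*+/+ libraries, with a log2 change of −0.28 (SE 0.09, FDR 0.0269). Without *Kat6a*-/- replicate 4 both calls were lost, *Ezh2* at −0.21 (FDR 0.0724) and *Suz12* at −0.18 (FDR 0.109). The *Ezh2* call was also lost without any one of the 4 *Kat6a*+/+ libraries, and the *Suz12* call without *Kat6a*+/+ replicate 1 or 3 or *Kat6a*-/- replicate 1. With a term for Y-linked reads, which were unevenly spread over the genotypes, both calls were lost as well (*Ezh2* −0.27, FDR 0.126, and *Suz12* −0.22, FDR 0.107), *Cbx2* stayed called at −0.62 (FDR 0.00540) and *Bmi1* was called higher (0.27, FDR 0.0394). *Ezh2* kept its call in 14 and *Suz12* in 15 of 23 alternative settings, always with a lower value in *Kat6a*-/-. Both calls were lost by edgeR and without a random block. That of *Suz12* was also lost by DESeq2 and that of *Ezh2* with litter as a fixed term. *Kat6a*-/- replicate 4 also held the lowest sum of S phase transcripts among proliferating libraries.

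The remaining members were not called in proliferating cells. *Rnf2* was at −0.19 (SE 0.08, FDR 0.086), although its 4 *Kat6a*-/- libraries (79.2 to 99.0 CPM) lay below all *Kat6a*+/+ libraries (100 to 111 CPM). With *Rnf2*, 4 of 9 members had groups that did not overlap, all below, beside 31.3% of all tested genes (17.6% below). *Bmi1* was the one member with an estimate above 0 that came near the threshold, at 0.22 (SE 0.08, FDR 0.0544), with *Kat6a*-/- libraries at 217, 205, 214 and 175 CPM and *Kat6a*+/+ libraries at 165, 159, 207 and 173 CPM. *Eed* was at −0.17 (SE 0.11, FDR 0.246) and *Cbx8* at −0.58 with a large error (SE 0.30, FDR 0.162), and its *Kat6a*+/+ libraries ran from 8.45 to 25.4 CPM. By DESeq2, and without *Kat6a*+/+ replicate 3, *Cbx8* was called lower. *Ezh1* (−0.0020, 95% interval −0.31 to 0.31) and *Cbx7* (0.05, 95% interval −0.33 to 0.43) showed no detectable change.

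**Figure D3:**
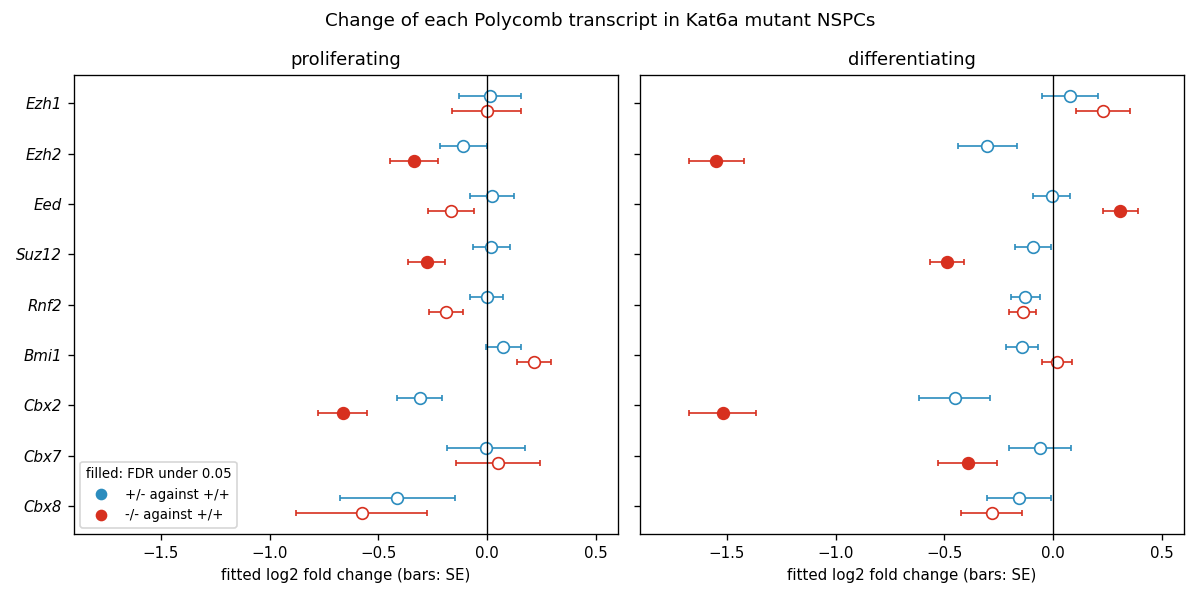
Fitted log2 fold change against *Kat6a*+/+ (x axis, bars: SE) of each member in *Kat6a*+/- and *Kat6a*-/- NSPCs of both conditions, with filled points where the FDR was under 0.05. No *Kat6a*+/- value was called, and the *Ezh2* and *Cbx2* values of differentiating *Kat6a*-/- cells (−1.55 and −1.52) lay farthest from 0.

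In differentiating NSPCs the same question was asked of cells after 3 days in serum. *Ezh2* and *Cbx2* stood far below their *Kat6a*+/+ level in *Kat6a*-/- cells (fold 0.342 and 0.349), and *Suz12* was lower by a smaller amount (fold 0.712). *Cbx7* was also called lower and *Eed* called higher, but these last calls were lost without the library weights. In all, 5 of 9 members (55.6%) were called, 4 lower and 1 higher, against 54.4% of all tested genes (27.7% lower and 26.7% higher), so the members were again called about as often as other genes. Their median log2 change was −0.28, beside −0.02 over all genes.

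*Ezh2* stood at 28.0, 23.7, 30.1 and 40.2 CPM in the *Kat6a*-/- libraries, each below the lowest *Kat6a*+/+ library at 70.4 CPM. The log2 change was −1.55 (SE 0.13, FDR 3.26e-06), which ranked 134 of 13335 genes by p. It was called in each of 23 alternative settings, between −1.73 and −1.27. *Cbx2* stood at 5.57, 4.99, 6.69 and 7.75 CPM against 18.5, 15.5, 20.3 and 19.2 CPM, a log2 change of −1.52 (SE 0.15, FDR 1.14e-05, rank 393), called in each of 23 settings between −1.77 and −1.28. *Suz12* was counted at 57.7, 45.1, 60.2 and 53.0 CPM without KAT6A and at 82.6, 72.3, 86.8 and 75.8 CPM with it, and the groups did not overlap. Its change was −0.49 (SE 0.08, FDR 2.27e-04), and it was called in 22 of 23 settings, the exception being litter as a fixed term (−0.50, FDR 0.0771).

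*Eed* (chromosome 7, 89603862 to 89630217, minus strand), the subunit that binds H3K27me3, moved the other way in the weighted fit. Its *Kat6a*-/- libraries stood at 44.1, 29.4, 40.9 and 36.4 CPM against 32.6, 30.6, 32.9 and 33.6 CPM in *Kat6a*+/+, so 3 libraries were above and replicate 2 was below the whole *Kat6a*+/+ range. The log2 change was 0.31 (SE 0.08, FDR 0.0063). Without quality weights it was 0.20 (FDR 0.285), without *Kat6a*-/- replicate 3 it was 0.07 (FDR 0.844), and without *Kat6a*-/- replicate 1 it was 0.08 (FDR 0.791). *Cbx7* stood at 9.91, 11.5, 7.84 and 9.56 CPM against 10.9, 12.7, 11.7 and 9.77 CPM, with overlapping groups and the lowest value in the heavily weighted replicate 3. Its change of −0.39 (SE 0.13, FDR 0.0248) became −0.22 without weights (FDR 0.399) and −0.05 without *Kat6a*-/- replicate 3 (FDR 0.942), and the call was also lost without *Kat6a*-/- replicate 1 (−0.22) or without *Kat6a*+/+ replicate 1 or 3.

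The other members were not called in differentiating cells. *Rnf2* was at −0.14 (SE 0.06, FDR 0.0723) and *Cbx8* at −0.28 (SE 0.14, FDR 0.104), the latter with all 4 *Kat6a*-/- libraries (8.59 to 9.40 CPM) below all *Kat6a*+/+ libraries (10.2 to 15.1 CPM). With *Cbx8*, 4 of 9 members did not overlap between the groups, all below, beside 26.9% of all tested genes (14.7% below). *Ezh1* was at 0.23 (SE 0.12, FDR 0.132), with 27.9, 28.9, 23.4 and 24.2 CPM in *Kat6a*-/- libraries. *Bmi1*, at 0.02 (95% interval −0.12 to 0.15), had *Kat6a*-/- libraries of 118 to 139 CPM within the *Kat6a*+/+ range of 116 to 144 CPM. Scaling by library totals in place of TMM moved the median of all genes by −0.15 in this comparison and the share of calls that were higher from 49.1% to 31.7%. Under it *Bmi1* stood at −0.13 and *Eed* at 0.16 (FDR 0.0831), *Rnf2* and *Cbx8* were called lower, and *Ezh2*, *Cbx2*, *Suz12* and *Cbx7* remained called lower.

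Whether the effect of the null genotype differed between conditions was tested by an interaction term over all 24 libraries. The conditions shared 6 embryo labels, and litter, not embryo, was the random block. With embryo as the block the *Ezh2* interaction was −1.07 (FDR 0.00466) and that of *Cbx2* −0.82 (FDR 0.0603). *Ezh2* was called, with a further log2 change of −1.08 in differentiating cells (SE 0.23, FDR 0.00419), which was called in each of 35 alternative settings. *Cbx2* had an interaction of −0.81 (SE 0.28) that missed the threshold (FDR 0.0556) and was called in 16 of 35 settings. *Eed* had an interaction of 0.44 (SE 0.18, FDR 0.102), and the other members lay between −0.25 (*Suz12*) and 0.43 (*Cbx8*) with FDR of 0.287 or above. The 1 called member makes 11.1%, against 13.9% of all tested genes (7.58% lower).

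A single null allele was examined in *Kat6a*+/- NSPCs. No member was called by limma in either condition (0% of all genes were called in both), and none by edgeR or DESeq2. At an unadjusted p under 0.05 there was 1 member in proliferating cells, *Cbx2*, and 2 in differentiating cells, *Cbx2* and *Ezh2*. By p, *Cbx2* ranked 239 of 12273 genes in proliferating cells. In differentiating cells *Cbx2* ranked 831 and *Ezh2* 1740 of 13335, so many other genes passed the same cut. *Cbx2* stood at 47.9, 45.2, 37.3 and 35.8 CPM in proliferating *Kat6a*+/- libraries, 3 of them below the whole *Kat6a*+/+ range, with a log2 change of −0.31 (SE 0.10, FDR 0.486). In differentiating *Kat6a*+/- libraries *Cbx2* stood at 12.6, 17.2, 20.7 and 9.82 CPM, a spread that ran from above to well below the *Kat6a*+/+ libraries, and the change was −0.45 (SE 0.16, FDR 0.267). *Cbx2* was called in 1 of the 23 alternative settings, without *Kat6a*+/- replicate 3 (FDR 0.0407).

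The other *Kat6a*+/- values did not pass the test either. *Ezh2* was at −0.11 (SE 0.11, 95% interval −0.32 to 0.10, FDR 0.871) in proliferating and −0.30 (SE 0.13, 95% interval −0.57 to −0.04, FDR 0.334) in differentiating cells, where its libraries stood at 64.6, 88.7, 89.4 and 68.6 CPM. Replicate 1, at 64.6 CPM, held 50.2% of the weight of that group. The unweighted means were 77.9 ± 13.1 CPM against 83.4 ± 13.6 CPM in *Kat6a*+/+ (mean ± SD, n = 4). With a library left out, the fitted *Ezh2* value of differentiating cells ran from −0.42 to −0.06. *Cbx8* was at −0.41 (SE 0.26) in proliferating and −0.16 (SE 0.15) in differentiating cells. *Suz12* was at 0.02 (SE 0.08) and −0.09 (SE 0.08), *Eed* at 0.02 (SE 0.10) and −0.01 (SE 0.09), and *Rnf2* at −0.0024 (SE 0.08) and −0.13 (SE 0.07). *Bmi1* was at 0.07 (SE 0.08) and −0.14 (SE 0.07), *Ezh1* at 0.01 (SE 0.14) and 0.08 (SE 0.13), and *Cbx7* at −0.0048 (SE 0.18) and −0.06 (SE 0.14). None of these groups of 4 was separated from *Kat6a*+/+, beside 4.53% of all tested genes in proliferating and 2.78% in differentiating cells.

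Direct comparison of *Kat6a*-/- with *Kat6a*+/- NSPCs shares the *Kat6a*-/- libraries with the comparisons above. In proliferating cells only *Suz12* was called, at −0.30 (SE 0.08, FDR 0.0298), or 1 of 9 members against 14.8% of all genes (6.30% lower), and it was not called without *Kat6a*-/- replicate 1 or 4 or *Kat6a*+/- replicate 1 or 2. Its call was also lost by edgeR, by DESeq2 and without a random block. *Cbx2* at −0.35 (SE 0.11) sat on the threshold with an FDR of 0.05 and was called in 10 of 23 settings. In differentiating cells *Ezh2* (−1.25, SE 0.15, FDR 1.46e-04), *Cbx2* (−1.07, SE 0.18, FDR 0.00120) and *Suz12* (−0.40, SE 0.09, FDR 0.00573) were lower and *Eed* (0.32, SE 0.09, FDR 0.0215) was higher, 4 of 9 members against 37.5% of all genes (18.4% lower and 19.1% higher). Groups without overlap were those of *Cbx2* in proliferating cells and of *Ezh2*, *Suz12* and *Cbx2* in differentiating cells, where 12.3% and 16.2% of all genes had such groups. The *Ezh2* call held in each of 23 settings. *Cbx2*, *Suz12* and *Eed* each lost their call without *Kat6a*-/- replicate 1 and without replicate 3, and *Eed* also without *Kat6a*+/- replicate 1 or 4. The *Eed* call held in only 10 of 23 settings and was lost, among others, by edgeR (0.14, FDR 0.508), by DESeq2 (0.14, FDR 0.531) and without quality weights (0.13, FDR 0.543), and the *Suz12* call was also lost with litter as a fixed term (−0.42, FDR 0.148). The values not called ran from −0.23 (*Ezh2*) to 0.14 (*Bmi1*) in proliferating and from −0.33 (*Cbx7*) to 0.16 (*Bmi1*) in differentiating cells.

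The makeup of the Polycomb transcripts was described by shares. Per length, *Ezh2* made up 97.4 ± 0.528% of *Ezh1* plus *Ezh2* in proliferating *Kat6a*+/+ and 96.5 ± 1.70% in proliferating *Kat6a*-/- NSPCs (mean ± SD, n = 4), and these groups overlapped. In differentiating *Kat6a*+/+ cells the share was 89.2, 83.4, 90.2 and 85.6%, and in differentiating *Kat6a*-/- cells it was 64.8, 60.0, 70.2 and 75.2%, each below every *Kat6a*+/+ library. *Kat6a*+/- cells stood at 86.6 ± 4.11%. Of the sum of the 3 chromodomain genes, *Cbx2* made up 51.4 ± 8.58% in proliferating *Kat6a*+/+ and 49.4 ± 8.59% in proliferating *Kat6a*-/- cells, which overlapped. It made up 28.1 ± 3.53% in differentiating *Kat6a*+/+ and 14.6 ± 2.92% in differentiating *Kat6a*-/- cells. *Cbx8* made up 49.4 ± 5.08% and 56.2 ± 2.78% in the differentiating *Kat6a*+/+ and *Kat6a*-/- cells, and *Cbx7* 22.5 ± 3.48% and 29.2 ± 3.93%. In differentiating *Kat6a*-/- cells *Ezh2* stood at 8.99 ± 2.05 CPM per kb, below *Bmi1*, *Eed*, *Rnf2* and *Suz12*, though overlapping with *Suz12*, and *Cbx2* stood lowest of all 9 at 1.67 ± 0.326 without overlap with *Cbx7*, the next above it. These shares are descriptions and were not tested.

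Transcripts of dividing cells moved with these results. The summed CPM of 16 S phase genes ran from 3320 to 3690 in proliferating *Kat6a*+/+ libraries and stood at 3070, 2750, 3130 and 1810 in *Kat6a*-/- replicates 1 to 4, so replicate 4, the library with the lowest *Ezh2*, *Suz12* and *Cbx2*, also had the lowest sum. In differentiating cells the sum was 1040, 937, 1260 and 812 in *Kat6a*+/+ and 351, 270, 327 and 397 in *Kat6a*-/- libraries. Of the 16 genes, 8 were called lower in proliferating and 16 in differentiating *Kat6a*-/- cells (median log2 change −0.33 and −2.10), and 12 of 12 mitotic genes were called lower in the latter (median −3.05) and 4 of 12 in the former. Over all tested genes 13.8% were called lower in proliferating and 27.7% in differentiating cells. In *Kat6a*+/+ cells all 16 and all 12 were lower in differentiating than in proliferating cells (median −1.78 and −1.72), beside 36.3% of all tested genes. No S phase or mitotic marker was at 0 throughout a group, and the part of dividing cells in the changes of *Ezh2*, *Cbx2* and *Suz12* was not tested.

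**Figure D4:**
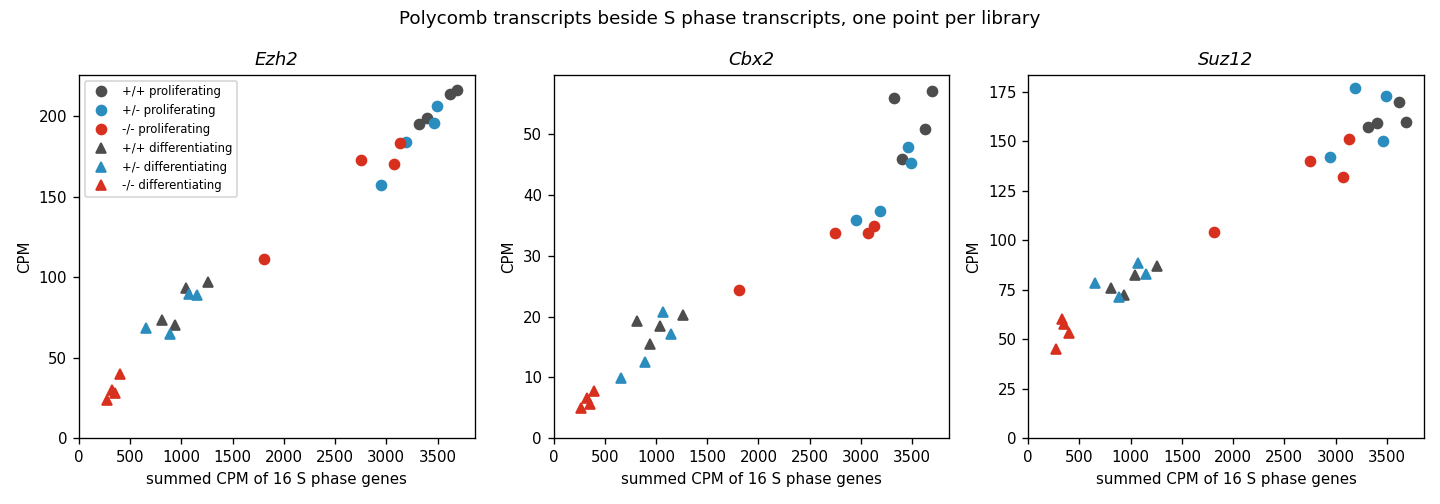
CPM of *Ezh2*, *Cbx2* and *Suz12* (y axes) beside the summed CPM of 16 S phase genes (x axes), 1 point per library, circles for proliferating and triangles for differentiating cells. Differentiating *Kat6a*-/- libraries lay lowest on both axes for all 3 genes, and the proliferating *Kat6a*-/- library at a sum of 1810 lay below the other proliferating libraries for all 3 genes.

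Markers of other cell types also differed between *Kat6a*-/- and *Kat6a*+/+ cells. In proliferating cells the 6 astrocyte markers summed to 689 to 861 CPM in *Kat6a*+/+ and to 1285 to 1983 CPM in *Kat6a*-/- libraries, without overlap, and 4 of 5 tested were called higher (*Gfap* 3.51, *S100b* 2.23, *Aldoc* 1.19 and *Slc1a3* 0.91). *Aldh1l1*, the other tested astrocyte marker, pointed the other way and was not called (−1.55, SE 0.69, FDR 0.109). Beside these and the counts that follow, 30.0% of all tested genes were called (13.8% lower). Of 6 tested neuronal markers 2 were lower (*Rbfox3* and *Tubb3*) and 1 higher (*Map2*), and none of 4 tested oligodendrocyte markers was called by limma, the nearest being *Pdgfra* (FDR 0.0988), the 1 marker of these with an unadjusted p under 0.05.

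In differentiating cells the sums of neuronal markers overlapped (538 to 707 CPM in *Kat6a*+/+ and 465 to 779 CPM in *Kat6a*-/- libraries), but single markers moved far. *Dcx* (−4.51), *Snap25* (−3.00), *Elavl3* (−2.18) and *Tubb3* (−0.74) were called lower and *Stmn2* (2.44) higher, 5 of 7 in all. Beside this and the counts that follow, 54.4% of all tested genes were called (27.7% lower and 26.7% higher). Astrocyte markers summed to 1993 to 3029 and 1605 to 5552 CPM, with 3 of 6 called lower and *S100b* higher (2.33). Of 4 tested oligodendrocyte markers 3 were lower, *Pdgfra* by the most (−2.28), and so was the endothelial marker *Kdr* (−2.52). Mesenchymal markers summed to between 11.7 and 26.3 CPM in *Kat6a*+/+ and between 20.4 and 193 CPM in *Kat6a*-/- libraries, with *Lum* at 0 in the latter, and 3 of the 3 tested were called higher. The 4 microglial markers summed to at most 0.784 CPM in any library.

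The 6 NSPC markers were present in every group, but they did not move as one. *Sox2* (−0.80, FDR 3.58e-05) and *Fabp7* (−0.90) were lower in differentiating *Kat6a*-/- cells while *Nes* (1.04), *Vim* (0.61) and *Hes1* (0.59) were higher, with sums of 5865 to 7503 CPM in *Kat6a*+/+ and 8188 to 11737 CPM in *Kat6a*-/- libraries. In proliferating *Kat6a*-/- cells *Vim* (−0.47) and *Nes* (−0.36) were lower and *Fabp7* (0.44) was higher, with sums of 7127 to 8009 CPM in *Kat6a*+/+ and 5137 to 7152 CPM in *Kat6a*-/- libraries. The part of any of these cell types in the changes of the Polycomb transcripts was not tested.

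The genes whose pattern over the 24 libraries came closest to that of a member were found by the root mean square (RMS) difference of centred log2 CPM, over 13582 genes. Nearest to *Ezh2* were *Rrm1* (0.133), *Nemp1* (0.163) and *Smc4* (0.166), where the median gene differed by 1.06. *Rrm1* encodes a subunit of ribonucleotide reductase and is one of the S phase genes above, and *Smc4* encodes a condensin subunit. *Cbx2* was the 9th nearest gene to *Ezh2* (0.195), while its PRC2 partners *Suz12* (0.422) and *Eed* (0.726) ranked 299 and 2263, and *Ezh1* ranked 10858 (1.58). Nearest to *Bmi1* were *Noc3l* (0.0975), *Slc25a5* (0.0992) and *Orc4* (0.120), with *Rnf2* at rank 256 (0.186). *Bmi1* varied less over the libraries (SD of log2 CPM 0.329, beside 0.981 for *Ezh2*), and the median gene differed from it by 0.562. *Cbx7* was nearest to *Nicn1* (0.172), *Wipf2* (0.178) and *Ip6k1* (0.190), and of the members *Ezh1* came closest to it (0.352, rank 1482). The median gene differed from *Cbx7* by 0.661. These are descriptions in which libraries, depth and conditions are shared.

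Other Polycomb genes and their antagonists were followed as a list of 37, of which 36 were tested. The comparison of proliferating *Kat6a*-/- with *Kat6a*+/+ cells called 12 of them, of which 9 were lower and 3 higher (median log2 change −0.12). That is 12 of 36 against 30.0% of all tested genes, about as often as any gene. *Scml2* (0.58, FDR 0.0184), *Rybp* (0.40, FDR 0.00421), whose product joins variant PRC1, and *Cbx6* (0.38, FDR 0.00887) were higher. *Epop*, a PRC2 cofactor, fell from 10.1 ± 2.82 to 3.67 ± 0.843 CPM (−1.27, SE 0.26, FDR 0.00340). *Asxl3*, of the complex that removes ubiquitin from H2A (−1.15, FDR 0.00356), *Pcgf2*, a relative of *Bmi1* (−0.78, FDR 0.0424), and *Phc1*, a PRC1 scaffold subunit (−0.53, FDR 0.00244), were the other large falls.

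In differentiating *Kat6a*-/- cells 16 of the 36 were lower and 5 higher by the same rule (median −0.24), or 21 of 36 against 54.4% of all tested genes, again near the background. *Phf19*, a PRC2 cofactor that binds H3K36 methylation, stood at 52.7 ± 28.1 CPM against 136 ± 16.3 CPM in *Kat6a*+/+ (−2.01, SE 0.20, FDR 1.08e-05). *Epop* (−1.93, FDR 5.1e-05), *Asxl3* (−1.79, FDR 0.00262) and *Lcorl* (−0.97, FDR 7.3e-05) followed. The largest rises were those of *Pcgf5* (0.54, FDR 0.00538), *Cbx6* (0.44, FDR 4.26e-04), *Rybp* (0.43, FDR 0.0326) and *Aebp2* (0.38, FDR 0.00135). Unweighted, *Pcgf5* stood at 31.6 ± 6.16 against 22.9 ± 4.07 CPM and *Cbx6* at 293 ± 22.1 against 219 ± 20.8 CPM. *Rybp* stood at 41.8 ± 15.7 against 36.9 ± 3.73 CPM and *Aebp2* at 110 ± 22.9 against 93.7 ± 4.95 CPM, small rises beside the spread. None of these calls outside the members was checked without the library weights. From proliferating to differentiating *Kat6a*+/+ cells 7 rose and 16 fell, or 23 of 36 against 73.0% of all tested genes. The largest rises were those of *Phf19*, from 17.6 ± 0.641 to 136 ± 16.3 CPM (2.94, FDR 1.13e-08), and *Pcgf2*, from 9.23 ± 2.40 to 59.1 ± 4.59 CPM (2.59, FDR 2.91e-08). *Scmh1* (1.06, FDR 1.61e-05) and *Cbx6* (1.03, FDR 2.69e-08) also rose. *Kdm2b*, which brings variant PRC1 to CpG islands, fell by 1.49 (FDR 1.62e-11), *Bcor* by 1.15 (FDR 3.2e-06), *Scml2* by 1.12 (FDR 1.26e-04) and *Lcorl* by 0.96 on the log2 scale (FDR 1.71e-06). In *Kat6a*+/- cells 0 of the 36 were called by limma in either condition, and 4 in proliferating and 4 in differentiating cells had an unadjusted p under 0.05. Many genes outside the list passed this cut too, as *Ezh2*, which also passed it, ranked only 1740 of 13335 by p in differentiating cells.

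Classical Polycomb targets were examined last. *Cdkn2a* and *Cdkn2b*, neighbouring genes that encode inhibitors of the cell cycle (*Cdkn2a* also encodes ARF, which whole-gene counts do not separate), were both higher in *Kat6a*-/- cells of both conditions. *Cdkn2a* stood at 13.9, 12.1, 8.35 and 13.7 CPM in proliferating *Kat6a*+/+ and at 45.4, 57.2, 54.5 and 50 CPM in *Kat6a*-/- ones (log2 change 2.23, SE 0.19, FDR 1.3e-05). In differentiating cells it stood at 9.08, 21.5, 7.39 and 19.4 CPM against 229, 178, 179 and 99.5 CPM (4.10, SE 0.30, FDR 2.5e-06). *Cdkn2b* rose from 4.92 ± 1.46 to 12.3 ± 3.91 CPM in proliferating (1.44, SE 0.23, FDR 6.09e-04) and from 21.2 ± 3.96 to 96.4 ± 19.2 CPM in differentiating cells (2.13, SE 0.16, FDR 2.5e-06). In *Kat6a*+/- cells *Cdkn2a* was at 0.25 (SE 0.23, FDR 0.858) in proliferating and 0.85 (SE 0.32, FDR 0.275) in differentiating cells, and *Cdkn2b* at 0.56 (SE 0.24, FDR 0.635) and 0.61 (SE 0.17, FDR 0.201), none of which passed the test. No *Kat6a*-/- library of either gene overlapped with *Kat6a*+/+. Groups without overlap made up 31.3% of all tested genes in proliferating and 26.9% in differentiating cells. Called genes made up 30.0% in proliferating and 54.4% in differentiating cells (26.7% higher in the latter).

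**Figure D5:**
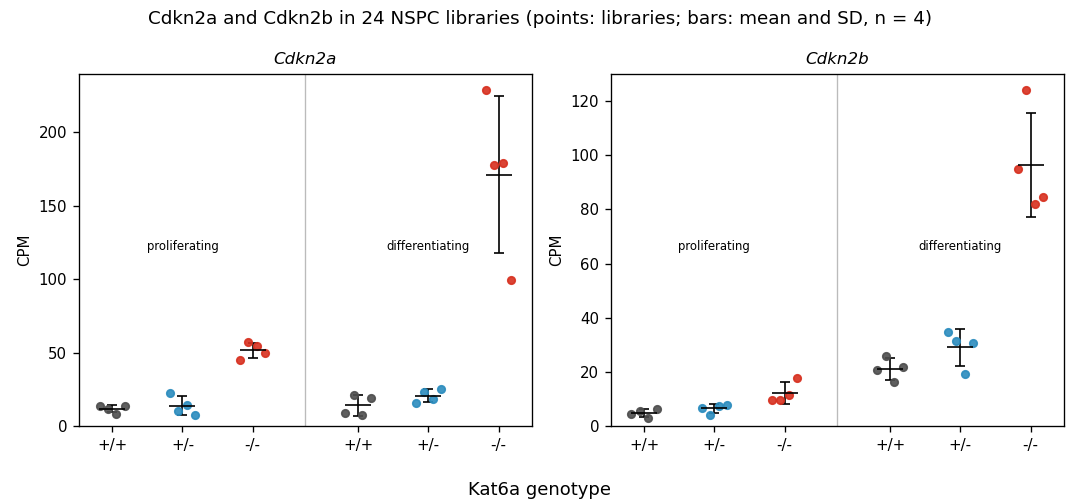
CPM (y axis, from 0) of *Cdkn2a* and *Cdkn2b* in each library by *Kat6a* genotype and condition (x axis), with mean and SD (n = 4). The *Kat6a*-/- libraries lay above all *Kat6a*+/+ libraries in both conditions, and *Cdkn2a* reached from 99.5 to 229 CPM in differentiating *Kat6a*-/- cells.

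The 39 HOX genes were almost silent. None passed the filter on low counts within either condition, 25 were at 0 in all 24 libraries, and 3 exceeded 1 CPM in any library. Their summed CPM ran from 0 to 0.0253 in proliferating *Kat6a*+/+ and from 0.897 to 1.86 in proliferating *Kat6a*-/- libraries, and from 0 to 0.110 and from 1.16 to 5.85 in the differentiating groups, with *Kat6a*+/- libraries from 0 to 0.0976 and from 0.121 to 0.602. The *Kat6a*-/- libraries thus lay above the *Kat6a*+/+ libraries in both conditions, at levels at which no HOX gene was tested between genotypes within a condition.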

How the data were processed

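Messenger RNA of 24 libraries was measured. The authors aligned reads of stranded libraries to mm39 with Rsubread, assigned them to RefSeq genes with featureCounts and deposited raw counts per gene, 1 table per library, keyed by Entrez gene and symbol. Tool versions for these libraries are not given in the sources used here. The members and gene lists were chosen with earlier results of these data known. Protein-coding genes without *Xist* and Y chromosome genes were kept and filtered with filterByExpr of edgeR 4.0.16 (R 4.3.3), which left 12273 genes in proliferating, 13335 in differentiating and 13582 in all libraries. Proliferating libraries, and all 24 for the condition and interaction contrasts, were fitted with limma 3.58.1 (voom) with litter as a random effect, estimated at correlations of 0.287 and 0.00366. Differentiating libraries were fitted with limma-trend and array weights, without a litter term, and both fits used robust moderation. P-values were adjusted by Benjamini-Hochberg over all tested genes (FDR), and within a condition they measure the spread between embryos. The condition and interaction contrasts did not pair the libraries that share an embryo label. The intervals printed take the SE with a normal quantile, so they are somewhat narrower than those of the moderated t-test behind the p-values. CPM values printed are unweighted. Named genes outside the members were, among the called ones of a list, up to 4 per direction with the largest log2 change, and the 3 nearest genes by RMS for *Ezh2*, *Bmi1* and *Cbx7*. Alternatives were edgeR, DESeq2 1.42.0, other scalings, filters, terms and weights, and each library left out. They were read for the members and for counts over all genes, not for other named genes or markers. The scripts were tested on simulated counts.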

Additional observations from a re-analysis of the deposited data

Results flagged for a closer look

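In 2 of 54 groups of 4 libraries 1 library stood apart from the other libraries, by a gap divided by the group's range above Dixon's 95% critical value, which chance passes in about 1 of 20 groups. *Ezh1* in differentiating *Kat6a*+/- replicate 2 was at 13.9 CPM, while the other libraries lay between 23.3 and 25.1 CPM (gap over range 0.839). *Cbx2* in proliferating *Kat6a*-/- replicate 4 was at 24.4 CPM, while the other libraries lay between 33.7 and 34.9 CPM (gap over range 0.886).

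The effect of the null genotype on *Ezh2* differed between conditions, with an interaction of −1.08 on the log2 scale (limma, FDR 0.00419), that is a larger fall in differentiating than in proliferating cells.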

How the results depend on the processing

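Of 1872 member values in alternative settings, 1664 kept their direction and side of the threshold, 61 lost and 53 gained a call, and 94 changed sign, none of them called in either setting. The causes were not tested. The 3 members called between proliferating *Kat6a*-/- and *Kat6a*+/+ became 1 by edgeR and 1 without a random block, and 1 to 4 with a library left out (1 without *Kat6a*+/+ replicate 1). DESeq2 dropped *Suz12* and called *Cbx8* instead. For proliferating *Kat6a*-/- against *Kat6a*+/- the 1 called member became 0 by edgeR and 0 without a random block, 2 with library totals, RLE factors, all genes or voom quality weights, and 0 to 3 with a library left out. Here DESeq2 dropped *Suz12* and called *Cbx2* instead. In differentiating *Kat6a*-/- against *Kat6a*+/+ the 5 called members became 3 by edgeR, by DESeq2, without weights and by voom with a litter block, 2 with litter as a fixed term, and 3 to 7 with a library left out (3 without *Kat6a*-/- replicate 1 or 3). Against *Kat6a*+/- the 4 became 2 with litter fixed and 1 to 6 with a library left out (1 without *Kat6a*-/- replicate 1 or 3). For differentiating *Kat6a*+/- against *Kat6a*+/+ leaving out a library gave 0 to 1. The interaction called 1 member, 2 by edgeR, DESeq2, library totals, all genes or litter fixed, and 1 to 2 with a library left out, and the condition contrast 8 to 9.

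Replicate numbers did not pair the samples. The mean correlation of same-numbered deviations was 0.0156 (−0.334 to 0.481) in proliferating and −0.157 (−0.468 to 0.154) in differentiating cells. With the replicate number as a block, *Kat6a*-/- against *Kat6a*+/+ had 4 called members in proliferating (with *Rnf2*, FDR 0.0497) and 7 in differentiating cells (with *Rnf2*, FDR 0.0275, and *Cbx8*, FDR 0.0457). *Kat6a*-/- against *Kat6a*+/- had 2 (with *Cbx2*) and 3 (without *Eed*, FDR 0.0516), and the interaction 2 (with *Cbx2*). The block changed no other call of a member.

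Over all genes, proliferating *Kat6a*-/- against *Kat6a*+/+ gave 3686 calls (1936 to 4583 over other settings, 2316 to 4000 with a library left out). Differentiating cells gave 7255 (1803 to 8292, and 942 to 9500 with the lowest without *Kat6a*-/- replicate 3). *Kat6a*-/- against *Kat6a*+/- gave 1813 (953 to 2244, 696 to 2200) and 5001 (395 to 5893, 243 to 7394), the interaction 1894 (1562 to 2770, 1267 to 3519), and *Kat6a*+/- against *Kat6a*+/+ 0 in both conditions (0 to 28, of which 28 by DESeq2, and 0 to 6 in proliferating, 0 to 8 and 0 to 301 in differentiating cells).

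The values that changed sign reached −0.37 (*Ezh1* with a term for Y-linked reads in differentiating *Kat6a*+/-). In proliferating *Kat6a*-/- against *Kat6a*+/+ these were *Ezh1* (0.0011 edgeR, 0.0012 DESeq2, 0.059 litter fixed, −0.17 to 0.099 with a library left out) and *Cbx7* (−0.089 voom quality weights, −0.15 to 0.215). In proliferating *Kat6a*+/- they were *Ezh1* (−0.025 Y term, −0.0077 no block, −0.059 quality weights, −0.069 to 0.065), *Eed* (−0.018 edgeR, −0.017 DESeq2, −0.021 no block, −0.0053 quality weights, −0.034 to 0.064), *Suz12* (−0.00073 no block, −0.0056 to 0.051), *Rnf2* (0.040 litter fixed, 0.041 Y term, 0.030 quality weights, −0.031 to 0.051) and *Cbx7* (0.042 litter fixed, 0.0037 Y term, 0.052 quality weights, −0.074 to 0.084). In proliferating *Kat6a*-/- against *Kat6a*+/- they were *Ezh1* (0.018 litter fixed, −0.17 to 0.064), *Cbx7* (−0.14 quality weights, −0.15 to 0.24) and *Cbx8* (−0.30 to 0.028).

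In differentiating *Kat6a*-/- against *Kat6a*+/+ they were *Ezh1* (−0.085 Y term) and *Bmi1* (−0.13 library totals, −0.0088 no filter, −0.025 litter fixed, −0.085 Y term, −0.028 to 0.073 with a library left out). In differentiating *Kat6a*+/- they were *Ezh1* (−0.035 edgeR, −0.028 DESeq2, −0.22 litter fixed, −0.37 Y term, −0.065 no weights, −0.044 voom, −0.018 to 0.17), *Eed* (0.078, 0.087, 0.073, 0.22, 0.070 and 0.065 in the same settings, 0.0033 no filter, −0.079 to 0.14), *Suz12* (0.014 edgeR, 0.023 DESeq2, 0.017 Y term, 0.014 no weights, 0.020 voom, −0.17 to 0.059), *Cbx7* (−0.268 to 0.050) and *Cbx8* (−0.30 to 0.10). Against *Kat6a*+/- they were *Rnf2* (−0.099 to 0.0027), *Cbx7* (−0.45 to 0.00038) and *Cbx8* (−0.40 to 0.016). The interaction of *Rnf2* went to −0.072 with library totals and −0.033 to 0.089 with a library left out.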
